A study of Mus musculus with 8 samples.

Results

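Hematopoietic stem and progenitor cells (HSPCs) of mouse bone marrow were compared 24 h after 1 subcutaneous injection of IFNα with the same population from control mice injected with PBS. All mice were C57Bl/6 wildtype animals of 12 to 14 weeks. The dose was 50000 IU for each 20 g of body weight, given as recombinant mouse IFNα, and control mice received 100 µl of PBS. The sorted population was LK cells (lineage-negative and c-Kit-positive), to which the authors had added sorted HSCs (CD150+ CD48- CD34- within LK) in a set proportion. The shares of HSC-like cells, and with them those of all other cells, were thus in part set by the sort. The same experiment sampled 3 h and 72 h after IFNα, and these libraries are used only to place the 24 h levels in time.

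Cells were kept when the hashtag antibody assigned them to a single mouse, when mitochondrial transcripts made up at most 5% of their unique molecular identifiers (UMIs, each standing for 1 captured transcript molecule) and when at least 700 genes were detected. This left 5936 of the 10046 kept cells of the time course, with 2474 cells from 4 control mice and 3462 cells from 4 mice at 24 h. UMIs were summed per mouse over all its kept cells, so the mouse was the replicate (n = 4 against 4), and levels are given as CPM, a gene's UMIs scaled to 1000000 UMIs of a mouse after TMM normalization. Control mice 1 to 4 gave 827, 764, 825 and 58 cells, and mice 1 to 4 at 24 h gave 613, 1240, 693 and 916 cells. Depth per mouse ranged from 1102706 UMIs in control mouse 4 to 26446327 UMIs, and the median cell held 18964.5 UMIs in control and 18953.5 at 24 h. The 4 mice of a time point were pooled into 1 library, so the time point and its library cannot be told apart.

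Markers of the sorted population were present. Kit, the receptor used for the sort, had a UMI in 74.6% of control cells and 81.4% of cells at 24 h. Most lineage markers were close to absent, with 14 and 0 UMIs of the T cell receptor component Cd3e, 12 and 20 of Cd4, 0 and 3 of Cd8a and 1 and 0 of the neutrophil surface gene Ly6g over all control and all 24 h cells. The B cell receptor component Cd79a had 105 and 61 UMIs, in 0.404% and 0.289% of cells, and Adgre1, the macrophage gene of F4/80, was found in 2.59% of control cells and 1.18% at 24 h. In these summed values, fewer cells of a type and less RNA per cell cannot be told apart.

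Type I interferons such as IFNα bind the receptor made of Ifnar1 and Ifnar2, which activates the kinases Jak1 and Tyk2 and a transcription factor complex that holds Irf9. This complex binds the interferon-stimulated response element (ISRE) near the start of interferon-stimulated genes (ISGs), whose products block viral replication, sense foreign nucleic acids, load peptides onto MHC class I and switch the signal off again. In the bone marrow, type I interferon is known for driving dormant HSCs into division and for inducing the surface protein Sca-1, encoded by Ly6a.

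The ISRE core GAAANNGAAA was searched on both strands of the RefSeq promoter windows (GRCm38.p6, from 250 bases before to 50 bases after each gene's start). Overlapping matches share bases. Stretches before the start of 4 ISGs that were called higher at 24 h are shown because they hold 2 or 3 matches each, and they are written 5′ to 3′ on the strand of the gene with the matches in capitals. Isg15 encodes a ubiquitin-like modifier, Oas1a a 2′-5′-oligoadenylate synthetase, Bst2 the tether that holds virions on the cell, and Ifit1 a protein that binds viral RNA ends. They lie at chr4:156200845-156200926 (minus strand), chr5:120907526-120907575 (minus strand), chr8:71537557-71537632 (minus strand) and chr19:34640755-34640843 (plus strand).
Isg15: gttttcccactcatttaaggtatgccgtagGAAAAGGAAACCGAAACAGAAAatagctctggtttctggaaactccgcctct
Oas1a: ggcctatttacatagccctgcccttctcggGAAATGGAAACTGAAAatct
Bst2: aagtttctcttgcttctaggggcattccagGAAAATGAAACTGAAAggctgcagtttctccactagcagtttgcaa
Ifit1: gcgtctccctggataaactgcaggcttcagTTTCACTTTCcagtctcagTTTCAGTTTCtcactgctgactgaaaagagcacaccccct
The match nearest to the gene's start ended 4 bases before it in Oas1a, 56 in Isg15, 75 in Ifit1 and 114 in Bst2. In Ifit1 the matches lie on the opposite strand.

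Among 27025 genes with a promoter window the motif occurred in 1079 (3.99%), and among the 9074 genes that were tested here and had a window in 354 (3.90%). Of the genes called higher at 24 h, 33 of 113 with a window held it (29.2%), and of those called lower 3 of 62 (4.84%). By role, it was found in 17 of 32 antiviral effectors, 7 of 11 nucleic acid sensors and 9 of 10 interferon-inducible GTPases, but in 5 of 17 MHC class I genes and 3 of 16 genes of interferon signalling. Of the genes called higher outside these 5 lists, 11 of 80 held it (13.8%). None of 7 MHC class II genes and 1 of 19 HSC identity genes had it in this window. A match describes the letters of the window and is not a binding site.

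Differential expression was tested with edgeR's quasi-likelihood F test over all 16 mice, with Benjamini-Hochberg adjustment over the 12042 genes that passed the filter on low counts. A gene was called when its adjusted p was under 0.05 and its absolute log2 fold change over 1. At 24 h, 176 genes were called higher (1.46% of genes tested) and 91 were called lower (0.756%). Without the fold threshold, 1743 genes were higher (14.5%) and 1662 lower (13.8%). For 130 of the genes called higher and 41 of those called lower, the 4 mice at 24 h and the 4 control mice did not overlap. Over all genes tested, the 24 h mice all lay above the control mice for 12.7% and all below for 11.1%.

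Most of what was called at 24 h was also called at 3 h. Of the 176 genes called higher than control, 147 were also called higher at 3 h against control and 69 at 72 h against control, comparisons that share the control mice. Over all 12042 genes tested, 629 were called higher than control at 3 h and 205 at 72 h. Of the 91 genes called lower, 70 were also called lower at 3 h and 57 at 72 h. Over all genes tested, 202 and 140 were called lower at these times. Set directly against the other time points, 101 of the 176 were called lower at 24 h than at 3 h and 58 called higher than at 72 h, and 54 were both. Against 3 h, 74 genes were called higher (0.615%) and 353 lower (2.93%), and against 72 h, 78 higher (0.648%) and 13 lower (0.108%). By adjusted p alone, 12.3% of genes were higher and 16.3% lower than at 3 h, and 5.38% and 3.7% than at 72 h. With scaling by library size alone, 3752 genes were higher (31.2%) and 1172 lower (9.73%) than at 3 h, a shift of 0.14 in the median log2 difference, so small differences from 3 h depend on the scaling. Ifi27l2a was the only gene called higher at 24 h than in control, at 3 h and at 72 h. None was called lower at 24 h than in all 3 others.

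Ifi27l2a, a small mitochondrial ISG product, had the largest rise of the called genes with a mean of at least 5 CPM and no overlap between the groups. Its level was 12.95, 12.5, 14.7 and 8.70 CPM in control mice 1 to 4 and 141, 138, 128 and 133 CPM at 24 h. Every treated mouse lay far above every control mouse. The log2 fold change was 3.34 ± 0.09 (SE, adjusted p = 2.0e-17, edgeR). At 3 h the level was 60.2, 72.6, 56.4 and 55.7 CPM, below all 24 h mice, and the log2 difference of 24 h to 3 h was 1.15 ± 0.08 (SE). By 72 h it was 10.5, 14.8, 12.7 and 9.72 CPM, similar to the control mice.

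**Figure D1:**
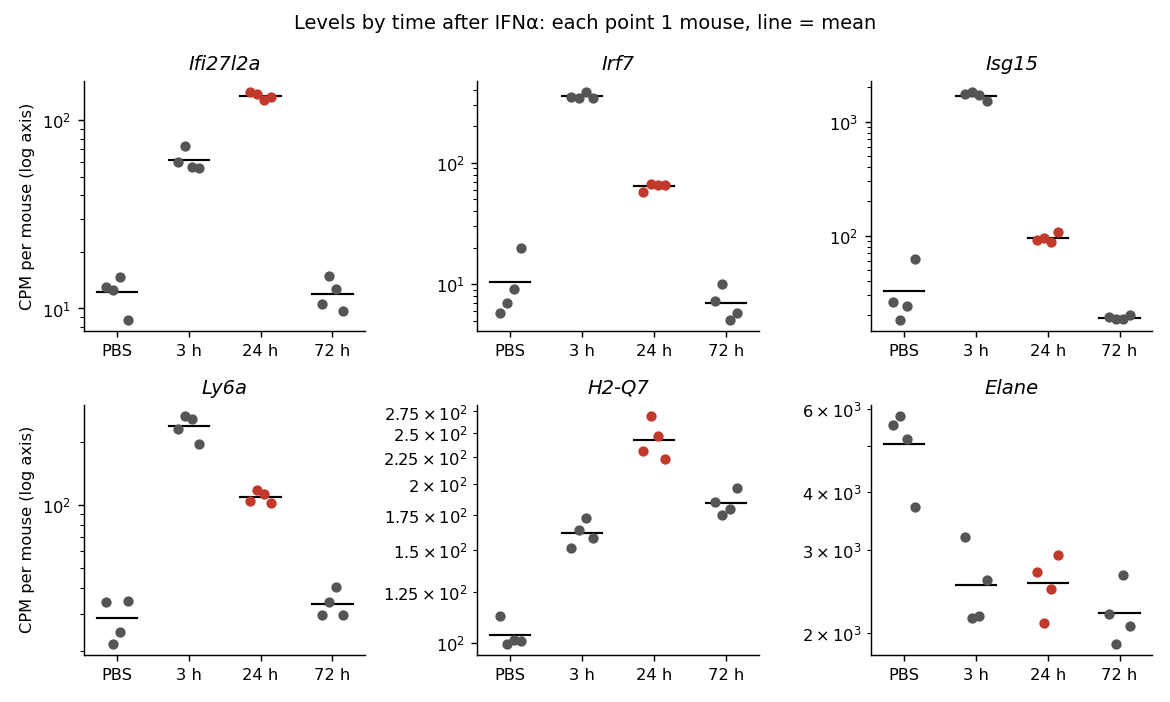
Level of 6 genes in each of the 16 mice (y axis, CPM on a log axis) by time after IFNα (x axis), with the 24 h mice in red and a line at the mean of 4 mice. Ifi27l2a is highest at 24 h, Irf7, Isg15 and Ly6a lie between their 3 h and 72 h levels, H2-Q7 is above the other time points and Elane is below control at all times after IFNα.

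The antiviral effectors were higher at 24 h as a group. Of 38 members tested, 25 were called higher and none lower, 36 had an adjusted p under 0.05 in the upward direction, and the median log2 fold change was 1.49, against 0.00 over all genes tested. The most abundant was Ifitm3, which blocks the fusion of enveloped viruses, at 429, 459.8, 438 and 512 CPM in control and 1241, 1322, 1192 and 1261 CPM at 24 h. That is a fitted rise of 2.77-fold with no overlap (log2 fold change 1.47 ± 0.05, adjusted p = 1.9e-16). It had been at 3067 ± 185 CPM (SD, n = 4) at 3 h and was at 505 ± 15.6 CPM at 72 h, a level 24 h still exceeded (log2 difference 1.31 ± 0.05).

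Isg15 was far below its 3 h level. Its level was 26.3, 18.2, 24.05 and 61.8 CPM in control, 1738, 1807, 1707 and 1521 CPM at 3 h and 91.7, 94.8, 87.5 and 107 CPM at 24 h. All 24 h mice lay above all control mice, and all lay far below the 3 h mice. The log2 fold change to control was 1.96 ± 0.13 (adjusted p = 1.7e-10) and that of 24 h to 3 h -4.15 ± 0.11. At 72 h it was 19.1 ± 0.658 CPM.

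Other effectors followed the same order of 3 h, 24 h and control. Rtp4, which binds viral RNA, rose from 18.03, 20.2, 21.6 and 23.5 CPM to 77.4, 89.7, 80.7 and 91.2 CPM (log2 fold change 2.08 ± 0.08, adjusted p = 4.1e-15). Oas1a rose from 6.32, 6.30, 6.54 and 6.96 to 26.6, 24.03, 23.7 and 27.3 CPM and its relative Oasl2 from 9.84, 10.3, 10.3 and 15.7 to 35.3, 42.6, 34.4 and 41.97 CPM. In all 3 genes the groups did not overlap. Ifi44 rose by 2.22 ± 0.13 and Slfn5 by 1.95 ± 0.21 on the log2 scale, both without overlap. Oas1g (3.03 ± 0.20, adjusted p = 1.5e-10) and Ifit1bl1 (3.36 ± 0.52, adjusted p = 4.8e-05) had among the largest changes of the list, at mean levels at 24 h of only 5.09 ± 0.129 and 1.58 ± 0.775 CPM. Oas1a and Oas1g are close copies between which reads may be shared, so their separate values are uncertain.

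Control mouse 4, with its 58 cells, stood apart for several ISGs, and 1 of its cells held many of their UMIs. That cell held 14493 UMIs in all and 1 Hlf UMI. Isg15 had 50 of this mouse's 71 UMIs in that cell, Irf7 15 of 23, Zbp1 17 of 25 and Ifit3 14 of 15. The chemokine gene Cxcl10 had all 56 of its 56 UMIs in it. Ifit3, which was chosen after its values were seen, was 1.71, 0.341, 1.54 and 13.1 CPM in control mice 1 to 4 and 4.48, 5.79, 6.32 and 7.46 CPM at 24 h, with groups that overlapped only through this mouse. Cxcl10 was 0.622, 0.681, 1.01 and 48.7 CPM in control and 5.29, 6.45, 3.09 and 10.7 CPM at 24 h. Its fitted log2 fold change, in which shallow libraries count less, was 1.86 ± 0.65 (adjusted p = 0.035), and without control mouse 4 it was 3.1004 (adjusted p = 4.2e-06). Its call was lost in 9 of 17 alternatives, among them without control mouse 1 (1.42), control mouse 2 (1.47), control mouse 3 (1.55), 24 h mouse 2 (1.89) or 24 h mouse 4 (1.49), and the adjusted p ranged over 4.2e-06 to 0.65. The call of Ifit3 was lost in 3 of 18 alternatives, none of which left out a mouse. In all such counts, a call was lost when adjusted p was no longer under 0.05 or the direction turned, and the fold threshold was not applied. With control mouse 4 left out of the overlap, 159 called genes lay above and 72 below without overlap, where 17.5% and 18.0% of all genes tested did.

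Nucleic acid sensors were also higher. Of 20 tested, 7 were called higher, 16 were higher by adjusted p and none was lower, with a median log2 fold change of 0.85. Dhx58, the regulator of the RIG-I-like receptors, was 8.86, 8.74, 8.57 and 10.4 CPM in control and 20.4, 25.2, 24.9 and 27.1 CPM at 24 h (log2 fold change 1.49 ± 0.08, adjusted p = 2.4e-12). All 24 h mice were above all control mice. The DNA sensors Ifi203 and Ifi204 rose by 1.05 ± 0.07 and 2.09 ± 0.21, the former from 74.9 ± 10.6 to 148 ± 13.4 CPM (SD, n = 4). Zbp1, a sensor that triggers necroptosis, was 7.46, 4.54, 5.001 and 21.8 CPM in control and 17.3, 22.2, 18.9 and 23.02 CPM at 24 h (log2 fold change 1.75 ± 0.17, adjusted p = 6.9e-08). Its highest control value is that of mouse 4, and without this mouse the change was 1.85. Mnda rose by 1.26 ± 0.23 (adjusted p = 3.1e-04), from 2.57 ± 1.85 to 7.42 ± 0.933 CPM, after 93.1 ± 14.8 CPM at 3 h.

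Of 15 interferon-inducible GTPases tested, 8 were called higher and 13 were higher by adjusted p, with none lower and a median of 1.04. Ifi47, the most abundant, went from 86.1, 86.8, 81.9 and 85.3 to 118, 133, 119.6 and 119 CPM (log2 fold change 0.53 ± 0.04, adjusted p = 5.8e-09). Iigp1, which attacks the vacuoles of intracellular parasites, changed by 2.20 ± 0.20 and, without control mouse 4, by 2.35. Gvin1 changed by 1.99 ± 0.29 and Tgtp1, a near-identical copy of Tgtp2, by 1.60 ± 0.15. Over the effectors, sensors and GTPases together, 40 of 73 distinct members tested were called higher. Of these 40, 39 were called lower at 24 h than at 3 h and 31 called higher than at 72 h.

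Genes of interferon signalling itself changed unequally. Of 19 tested, 2 were called higher, 9 were higher by adjusted p and 3 lower. Both called members act in feedback on the response. Irf7, the factor that amplifies interferon production, was 5.86, 6.98, 9.10 and 20.01 CPM in control and 57.9, 66.7, 65.6 and 65.8 CPM at 24 h, without overlap (log2 fold change 3.07 ± 0.14, adjusted p = 1.1e-13). Usp18, which removes Isg15 from proteins and shuts the receptor down, went from 5.65, 6.42, 6.06 and 11.3 to 21.96, 22.5, 20.9 and 20.5 CPM (1.80 ± 0.09, adjusted p = 7.4e-13). The transcription factor gene Irf9 rose by 0.89 ± 0.08, from 23.3 ± 2.04 to 41.9 ± 2.76 CPM. Jak1, the most abundant member, changed by 0.13 ± 0.04 (adjusted p = 0.024), which no longer passed without control mouse 1 (0.12), control mouse 2 (0.12), control mouse 3 (0.13) or 24 h mouse 2 (0.12).

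MHC class I genes had a broad but small rise. Of 20 members tested, 18 were higher by adjusted p and none lower, but 3 were called, and the median log2 fold change was 0.48. B2m, the invariant chain of class I, was 1306, 1314, 1343 and 1208 CPM in control and 1892, 2042, 1918 and 1959 CPM at 24 h (0.59 ± 0.03, adjusted p = 3.9e-12). The 3 called members were the non-classical genes H2-Q4 (1.12 ± 0.07), H2-Q6 (1.27 ± 0.06) and H2-Q7 (1.22 ± 0.06), which are close copies whose reads may be split uncertainly. H2-Q7 was 112, 99.7, 101 and 101 CPM in control, 231, 269, 247 and 223 CPM at 24 h, 161 ± 8.80 CPM at 3 h and 184 ± 9.45 CPM at 72 h. Unlike Isg15, it was higher at 24 h than at 3 h (log2 difference 0.59 ± 0.06, adjusted p = 3.2e-08), and B2m was too (log2 difference 0.13 ± 0.03, adjusted p = 0.0041). Most of the list ran the other way, with 12 of 20 members lower than at 3 h by adjusted p and 5 higher, 1 called lower and none higher, and a median log2 difference of -0.39.

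**Figure D2:**
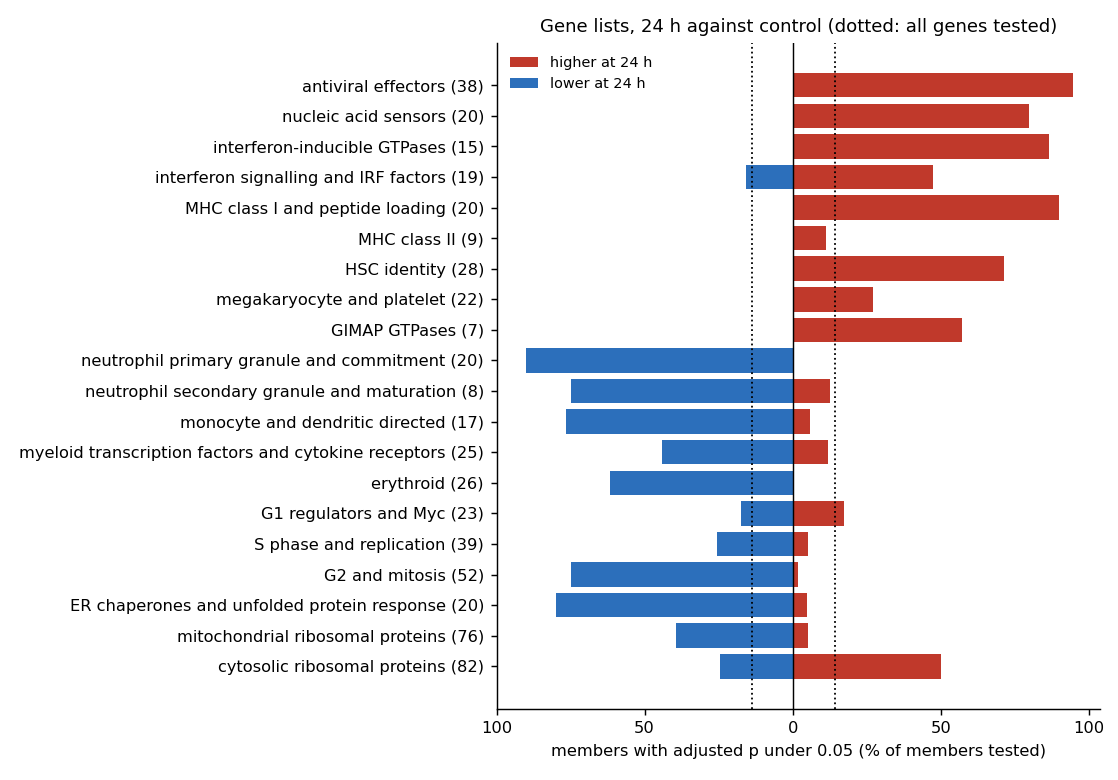
Share of the tested members of 20 gene lists (x axis, percent of members tested, number in brackets) with an adjusted p under 0.05 at 24 h, higher to the right in red and lower to the left in blue, with dotted lines at the shares over all 12042 genes tested (14.5% and 13.8%). The interferon and MHC class I lists and HSC identity extend to the right, and the neutrophil, monocyte, erythroid, G2 and mitosis and ER chaperone lists to the left.

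Over all cells, most genes of HSC identity rose, and most genes of the committed neutrophil, monocyte and erythroid lineages fell. Of 28 HSC identity genes tested, 20 were higher by adjusted p and none lower, with a median of 0.50, and 1 was called. That gene was Ly6a, which encodes Sca-1 and is itself an ISG. It was 34.4, 21.8, 24.7 and 34.8 CPM in control and 104, 118, 113 and 102 CPM at 24 h, with no overlap (log2 fold change 1.99997 ± 0.12, adjusted p = 2.9e-11), after 236 ± 31.6 CPM at 3 h. A Ly6a UMI was found in 21.4% ± 2.89 (SD, n = 4) of a control mouse's cells and in 51.3% ± 2.34 at 24 h. Ifitm1, the most abundant of the list, changed by 0.61 ± 0.13, Robo4, a guidance receptor that retains HSCs in the marrow, by 0.92 ± 0.27 and Sult1a1 by 0.88 ± 0.22. For Robo4 and Sult1a1 the mean level at 24 h was only 1.94 ± 0.529 and 5.91 ± 0.724 CPM, and Robo4 no longer passed without control mouse 1 (0.80), control mouse 2 (0.79) or 24 h mouse 2 (0.66).

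Megakaryocyte and platelet genes were higher for 6 of 22 by adjusted p and lower for none, with no call. Plek changed by 0.60 ± 0.12 and the platelet glycoprotein Gp9 by 0.47 ± 0.17. Pf4, platelet factor 4, did not pass the test (0.24 ± 0.32, adjusted p = 0.62). Of 7 GIMAP GTPases, 4 were higher by adjusted p, with Gimap6 at 26.2, 28.3, 26.7 and 34.8 CPM in control and 43.8, 55.8, 42.9 and 45.99 CPM at 24 h (0.79 ± 0.08, adjusted p = 3.0e-07), Gimap5 at 0.71 ± 0.10 and Gimap1 at 0.57 ± 0.08 on the log2 scale. Of 13 lymphoid priming genes, 3 were higher and 1 lower, where 14.5% and 13.8% of all genes tested were. The homing and adhesion list had 11 of 19 higher and 2 lower by adjusted p, among them the sphingosine-1-phosphate receptor S1pr1 (0.67 ± 0.12, adjusted p = 3.4e-04) and Jam3 (0.81 ± 0.27), both at under 6 CPM, while Cd47, the "do not eat me" signal and most abundant member, changed by 0.16 ± 0.04. Jam3 did not pass without control mouse 3 (0.68) or 24 h mouse 2 (0.59), and Gp9 did not in 9 of 18 alternatives, among them 6 of 8 that left out a mouse (0.39 to 0.51).

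Most neutrophil granule genes were lower. Of 20 genes of the primary granule and of commitment, 18 were lower by adjusted p and none higher, with a median of -0.59. Elane, neutrophil elastase, was 5538, 5795, 5184 and 3712 CPM in control and 2688, 2092, 2477 and 2929.7 CPM at 24 h, a fitted 1.99-fold fall without overlap (log2 fold change -0.996 ± 0.13, adjusted p = 6.5e-06). Its change was just short of the fold threshold for a call. Levels at 3 h and 72 h were 2524 ± 492 and 2199 ± 325 CPM, close to that at 24 h. Fcnb, a ficolin of granules, was the called member (-2.65 ± 0.31, adjusted p = 1.1e-06), and haptoglobin, Hp, changed by -0.89 ± 0.10.

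Of 8 genes of the secondary granule and of maturation, 4 were called lower. The calprotectin genes were among the largest falls. S100a8 was 174, 169, 226 and 76.6 CPM in control and 44.5, 35.2, 15.1 and 55.6 CPM at 24 h (log2 fold change -2.21 ± 0.38, adjusted p = 1.5e-04). S100a9 was 21.6, 28.7, 49.4 and 9.57 CPM in control and 5.43, 4.02, 1.68 and 5.88 CPM at 24 h (-2.88 ± 0.41, adjusted p = 1.8e-05). In neither gene did the groups overlap. A few cells carried much of the control signal, since the 10 cells with the most UMIs held 30.7% of control S100a8 and 68.2% of control S100a9. Chil3 changed by -3.42 ± 0.60 (adjusted p = 2.1e-04) at a control mean of 3.41 ± 3.92 CPM, and by -2.16 without control mouse 1. Lysozyme, Lyz2, went from 245, 163, 187 and 160.1 to 138, 159, 139.6 and 143 CPM (-0.42 ± 0.09, adjusted p = 0.0015). The complement gene C3 and the myeloid receptors Clec5a and Mgl2 also stood among the 12 largest falls, with log2 fold changes of -1.47 ± 0.12, -1.07 ± 0.14 and -1.48 ± 0.14.

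Genes directed to monocytes and dendritic cells were lower for 13 of 17 by adjusted p and higher for 1, with a median of -0.49. Klf4, a factor needed for monocyte differentiation, was 13.6, 8.12, 10.5 and 14.8 CPM in control and 2.13, 2.87, 5.38 and 4.91 CPM at 24 h (-1.52 ± 0.22, adjusted p = 2.5e-05). Slpi, an elastase inhibitor, was the other member called lower (-1.07 ± 0.13). Irf8, the factor of monocyte and dendritic cell fate, went from 123, 125, 107 and 115 to 74.5, 68.3, 69.5 and 82.6 CPM (-0.68 ± 0.09, adjusted p = 3.8e-06), and was higher at 24 h than at 3 h (log2 difference 0.45 ± 0.10). The coagulation factor F13a1 changed by -0.99 ± 0.11 and the M-CSF receptor Csf1r by -0.82 ± 0.12. The most abundant member, Cst3, changed by -0.33 ± 0.05. Among 25 myeloid transcription factors and cytokine receptors, 11 were lower and 3 higher, with Cebpe, needed for terminal granulocyte maturation, at -0.88 ± 0.14 and Spi1, which encodes PU.1, at -0.26 ± 0.05. Pld4, a phospholipase D family member, changed by -1.19 ± 0.10.

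Erythroid genes were lower for 16 of 26 by adjusted p and higher for none, with 5 called and a median of -0.52. Rhd, a blood group antigen gene, was 28.2, 17.9, 36.97 and 61.8 CPM in control and 11.9, 8.70, 16.5 and 10.9 CPM at 24 h (-1.34 ± 0.25, adjusted p = 3.3e-04), without overlap. The largest changes in the list were those of globins, in which few cells weighed heavily. Hba-a1 was 88.8, 4.94, 79.8 and 32.2 CPM in control and 8.81, 7.44, 8.74 and 3.61 CPM at 24 h (-3.01 ± 0.52, adjusted p = 1.6e-04), and the 10 cells richest in it held 76.4% of its control UMIs. Hbb-bs changed by -2.62 ± 0.53, with 39.2% of its control UMIs in 1 cell, and by -1.91 without control mouse 1. Hba-a2, a near-identical copy of Hba-a1, changed by -2.71 ± 0.47. Car1, carbonic anhydrase and the most abundant member, was 633, 693, 743 and 746 CPM in control and 450.2, 461, 742 and 637 CPM at 24 h, which did not pass the test (adjusted p = 0.16) but did without 24 h mouse 3 (-0.44).

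Changes in genes of rarer cells rested on small numbers of cells. Jchain, which joins secreted antibody chains, had the largest fall of the named genes, from 148, 112, 1.12 and 0.870 CPM to 0.147, 0.258, 0.0672 and 0.139 CPM (-8.79 ± 1.17), and 58.5% of its control UMIs came from 1 cell. In control mouse 1, 1 cell held 2838 of the mouse's 2847 Jchain UMIs, and in control mouse 2, 1 cell held 1965 of 1981. Without control mouse 1 the change was -8.11, a value that keeps the cell of mouse 2. Jchain was the member called among 5 B cell and plasma cell genes, of which the most abundant, Cd79b, did not pass (adjusted p = 0.49). Among 15 basophil, mast cell and eosinophil genes, 2 were called higher and 3 lower. Eosinophil peroxidase, Epx, changed by -3.40 ± 0.76, a call lost in 2 of 18 alternatives, with 96.997% of its control UMIs in 10 cells, and the mast cell chymase Cma1 by 4.90 ± 0.89, with 96.6% of its 24 h UMIs in 10 cells. Gzmb, the granule protease granzyme B, was 5.70, 0.681, 4.42 and 8.70 CPM in control and 20.4, 24.1, 17.5 and 15.6 CPM at 24 h (2.36 ± 0.43, adjusted p = 3.3e-04). A Gzmb UMI was found in 27 of 2474 control cells and 50 of 3462 cells at 24 h, and at least 10 UMIs in 7 and 30 cells. These counts pool the mice. Per mouse, the share of cells with a Gzmb UMI was 2.03% ± 2.14 (SD, n = 4) in control and 1.41% ± 0.359 at 24 h. The groups overlapped, and control mouse 4, with 58 cells, was highest at 5.17%. Of 3 T and NK cell genes tested, Klrd1 was called lower (-2.08 ± 0.46) and Lck passed upward (0.56 ± 0.18). Of 7 macrophage genes, 2 were called lower, Vcam1 (-1.60 ± 0.23) and Adgre1, the gene of F4/80, which was chosen after its values were seen (-1.23 ± 0.33). Slc40a1 changed by -0.68 ± 0.18 and Spic by 0.99 ± 0.31. Lck no longer passed without control mouse 3 (0.49) or 24 h mouse 3 (0.32), and Spic did not without control mouse 1 (0.82), control mouse 3 (0.83) or 24 h mouse 2 (0.91).

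The share of cells that carried a lineage marker was measured with 4 gates, each a rule on the UMIs of 1 gene and not a cell type. Shares describe the sorted mixture to which HSCs had been added, so every share depends on that addition. They are not abundances in the marrow. Cells with at least 10 Elane UMIs made up 32.4% ± 1.48 (SD, n = 4) of a control mouse's cells and 21.0% ± 1.84 at 24 h. The groups did not overlap, with 30.2% to 33.4% in control and 19.6% to 23.5% at 24 h. A two-sided exact permutation test of mice gave p = 0.0286, the smallest that 4 against 4 mice allow, and 0.0571 after Benjamini-Hochberg adjustment over the 4 gates. Cells with at least 4 Pf4 UMIs were 6.19% ± 1.14 in control and 9.44% ± 1.95 at 24 h (exact p = 0.0286, adjusted 0.0571). Cells with at least 1 Hlf UMI, a transcription factor gene of HSCs, were 37.3% ± 4.52 and 43.3% ± 3.56 (exact p = 0.11, adjusted 0.15), and cells with at least 2 UMIs of Klf1, the erythroid factor, 14.5% ± 3.31 and 12.8% ± 2.57 (exact p = 0.49). Of the cells in the Hlf gate, 324 of 880 in control and 555 of 1513 at 24 h held exactly 1 Hlf UMI, and a Hlf UMI was also found in 5.83% and 9.22% of Klf1-gated cells. The Pf4 groups overlapped when all barcodes with a single hashtag were counted, and the Elane groups did not. With a stricter gate of 10 Pf4 UMIs the difference was smaller, at 4.64% in control and 5.94% at 24 h. In cells thinned to 5000 UMIs the Pf4 shares were 4.52% and 5.94%. The groups did not overlap in either setting.

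**Figure D3:**
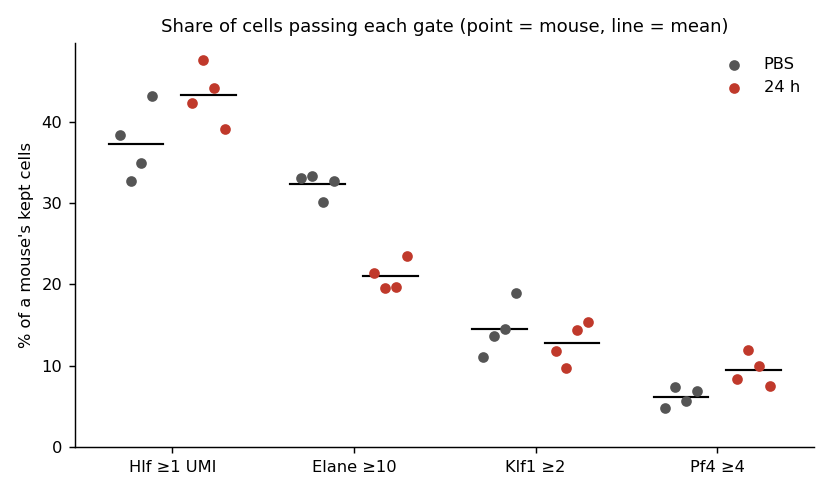
Share of each mouse's kept cells that passed a gate on Hlf, Elane, Klf1 or Pf4 UMIs (y axis, percent, from 0), with control mice in grey, mice at 24 h in red and a line at the mean of 4 mice. Cells with at least 10 Elane UMIs are 30.2% to 33.4% in control and 19.6% to 23.5% at 24 h, and the Hlf and Klf1 groups overlap. Shares are those of the sorted mixture with added HSCs.

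Mitotic genes were lower at 24 h. Of 52 genes of G2 and mitosis, 39 were lower by adjusted p, 1 was higher and none was called, with a median log2 fold change of -0.29. Ube2c, the ubiquitin-conjugating enzyme of the anaphase-promoting complex, was 170.3, 212, 187 and 138 CPM in control and 110.2, 104, 112 and 104 CPM at 24 h (-0.77 ± 0.10, adjusted p = 2.8e-06). The groups did not overlap. The mitotic kinase gene Aurka changed by -0.64 ± 0.09 and the survivin gene Birc5, whose product acts in chromosome segregation, by -0.52 ± 0.05. Gtse1 went from 6.03 ± 0.653 to 3.85 ± 0.312 CPM (-0.70 ± 0.11). The most abundant member, Hmgb2, did not pass (-0.04 ± 0.03, adjusted p = 0.47). Fewer S phase genes passed, with 10 of 39 lower, 2 higher and a median of 0.00. Rrm2, the regulatory subunit of ribonucleotide reductase, changed by -0.48 ± 0.09 and the replication gene Cdc45 by -0.41 ± 0.07. Of 23 G1 regulators, 4 were higher and 4 lower, shares near the 14.5% and 13.8% of all genes tested. Among them were the CDK inhibitor Cdkn1c at 0.64 ± 0.18, Mycn at 0.55 ± 0.14 and cyclin E1, Ccne1, at -0.64 ± 0.14. Cdkn1c no longer passed without control mouse 3 (0.50) or 24 h mouse 2 (0.52).

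Within the Hlf, Elane and Pf4 gates many G2 and mitosis genes were also lower. Of 52 G2 and mitosis genes, 17 were lower by adjusted p in cells with a Hlf UMI, where 3.15% of all genes tested were lower, and 24 in cells with at least 10 Elane UMIs, where 6.09% were. In cells with at least 4 Pf4 UMIs 18 of 51 were lower, where 1.24% of all genes were, and in cells with at least 2 Klf1 UMIs 3 of 52, where 4.43% were, a share near that of all genes. Ube2c changed by -0.89 ± 0.12 (adjusted p = 4.3e-06) in the Hlf gate and by -0.59 ± 0.21 (adjusted p = 0.075) in the Klf1 gate. In Hlf-positive cells its level was 155, 226, 234 and 217 CPM in control and 124, 113, 92.5 and 115 CPM at 24 h. S phase genes did not follow in most gates. Of 39 tested in the Hlf gate, 0 were lower and 1 higher by adjusted p, with a median of 0.05. The Elane gate had 11 of 39 lower and 1 higher. In the Klf1 gate 0 of 39 were lower and 2 higher, and in the Pf4 gate 0 of 38 and 1. Whether gated cells divided less was not tested.

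More replication-dependent histone genes were higher than lower. Of 20 tested, 12 were higher by adjusted p, 1 lower and 2 called, with a median of 0.41. Hist1h2ap was 17.98, 18.9, 20.6 and 18.3 CPM in control and 127, 151, 169 and 169.9 CPM at 24 h, a fitted 8.07-fold rise without overlap (3.01 ± 0.13, adjusted p = 9.6e-14). At 3 h it was 352 ± 56.9 CPM and at 72 h 109 ± 17.4 CPM. Hist1h2ae changed by 1.07 ± 0.10 and Hist1h3b by 0.93 ± 0.17. The most abundant, the linker histone Hist1h1b, did not pass (-0.28 ± 0.11, adjusted p = 0.073) but did, downward, without 24 h mouse 4 (-0.34). Histone transcripts of this kind end in a stem-loop without a poly(A) tail, while the assay captures poly(A) RNA.

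Short transcripts stood apart from long ones. Among genes whose longest transcript in GENCODE vM21 has at most 500 bases, the median log2 fold change at 24 h was 0.41 over 99 genes, and between 500 and 750 bases it was 0.10 over 254 genes. All longer bins lay between -0.04 and 0.01. At 3 h and 72 h against control, medians of the shortest bin were 0.91 and 0.59. The pattern moves with the library as well as with the time point, and these cannot be told apart. Its part in the changes of short genes was not tested.

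**Figure D4:**
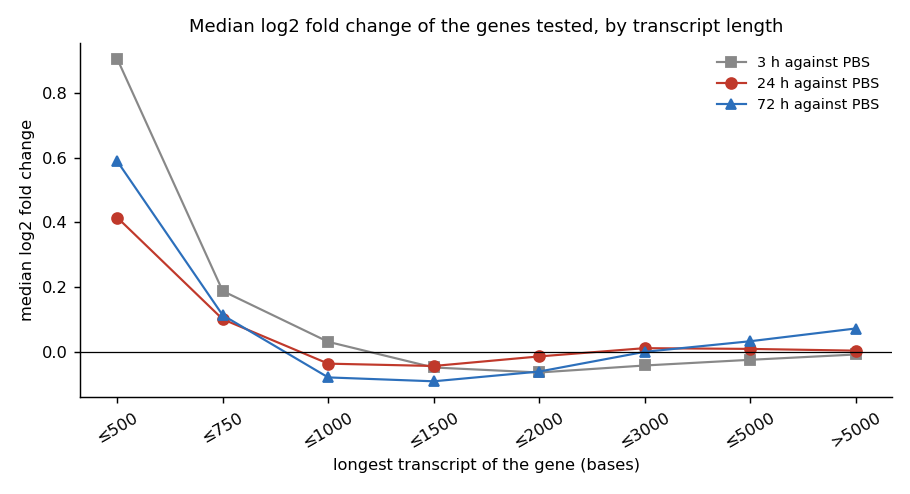
Median log2 fold change against control (y axis) of the genes tested, by the length of the gene's longest transcript in bases (x axis), at 3 h (squares), 24 h (circles) and 72 h (triangles). At 24 h the median is 0.41 for genes of at most 500 bases, 0.10 up to 750 bases and between -0.04 and 0.01 beyond.

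Several of the most significant genes belong to these short ones. Rpl35, a protein of the large ribosomal subunit, was 644, 668, 665 and 654 CPM in control and 1524, 1519.7, 1519 and 1554 CPM at 24 h, with a spread far below the difference (1.22 ± 0.02, adjusted p = 5.9e-20). It was 3514 ± 70.2 CPM at 3 h and 2395 ± 48.8 CPM at 72 h. Of 82 cytosolic ribosomal protein genes, 41 were higher, 20 lower and 1 called, with a median of 0.07. The median was 0.75 for the 5 members of at most 500 bases and 0.04 for the other 77. Rpl38 (0.89 ± 0.03), Rpl39 (0.76 ± 0.02) and Rps27 (0.70 ± 0.03) rose. Among 76 nuclear genes of the respiratory chain, 22 were higher and 20 lower, with the small subunits Atp5k (0.75 ± 0.05), Ndufa3 (0.62 ± 0.04), Cox7c (0.53 ± 0.03) and Atp5e (0.42 ± 0.03) higher, and the most abundant, Atp5g2, at 0.02 ± 0.03 (adjusted p = 0.63). Sec61g, a small subunit of the ER translocon, changed by 0.39 ± 0.04. Of 13 mitochondrially encoded genes, 9 were higher and none lower, with mt-Nd3 at 0.90 ± 0.05, mt-Nd4l at 0.85 ± 0.05 and mt-Nd6 at 0.62 ± 0.11, while mt-Co1, the most abundant, did not pass (adjusted p = 0.12). Of 76 mitochondrial ribosomal proteins, 30 were lower and 4 higher, with Mrpl52 at 0.53 ± 0.05, Mrps5 at 0.28 ± 0.05, Mrpl51 at -0.27 ± 0.04 and the most abundant, Mrpl33, at 0.06 ± 0.04 (adjusted p = 0.29).

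Chaperones of the endoplasmic reticulum (ER) were lower for 16 of 20 and higher for 1, with a median of -0.25. The secreted ER stress factor Manf was 423, 398, 417 and 379 CPM in control and 296, 259, 274 and 293 CPM at 24 h (-0.54 ± 0.06, adjusted p = 4.6e-07). The groups did not overlap. Sdf2l1 changed by -0.66 ± 0.08 and the co-chaperone Dnajc3 by -0.48 ± 0.06, and Sec61b, the most abundant, did not pass (adjusted p = 0.096) unless control mouse 4 (-0.11) or 24 h mouse 4 (-0.11) was left out. Of 15 cytosolic chaperones, 5 were lower, 1 higher and 2 called. The heat shock genes Hspa1a and Hspa1b, near-identical copies, changed by -2.72 ± 0.74 and -2.70 ± 0.73. Hspa1a was 6.17, 25.7, 40.8 and 59.2 CPM in control and 0.220, 0.147, 2.35 and 12.4 CPM at 24 h, with groups that overlapped. Its call was lost without control mouse 3 (-2.31) and with DESeq2, over a range of adjusted p of 6.6e-05 to 0.058, and that of Hspa1b without control mouse 3 (-2.24) and with DESeq2, over a range of 9.6e-05 to 0.077. Without 24 h mouse 4, which had the highest 24 h level, the changes were -5.08 and -5.16. Hsph1 changed by -0.45 ± 0.16 and Hsp90ab1, the most abundant, by 0.08 ± 0.02. Immediate early genes, which respond to handling as well as to signals, had 4 of 20 higher and 2 lower, near the 14.5% and 13.8% of all genes tested. Egr1 was at 0.73 ± 0.24, Fosb at -0.96 ± 0.35 and Jun at -0.37 ± 0.25 (adjusted p = 0.29). Hsph1 no longer passed without 5 of 8 mice, each left out alone, with values of -0.46 to -0.36, Egr1 without 4 of 8 (0.60 to 0.71) and Fosb without 5 of 8 (-0.96 to -0.58).

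Few members of the metabolic lists were called, where 1.46% of all genes tested were called higher and 0.756% lower. By adjusted p alone the shares over all genes were 14.5% and 13.8%. Of 20 glycolysis genes, 5 were higher and 5 lower, and Pgk1, phosphoglycerate kinase, was the one called, at 23.9, 22.9, 20.7 and 23.5 CPM in control and 43.9, 45.7, 46.9 and 50.3 CPM at 24 h (1.05 ± 0.08, adjusted p = 1.2e-09). Its level at 3 h was 81.8 ± 10.7 CPM. Hexokinases moved in opposite directions, with Hk2 at 0.26 ± 0.09 (adjusted p = 0.044) and Hk3 at -0.47 ± 0.07, while Aldoc changed by 0.93 ± 0.18 and the most abundant member, Gapdh, did not pass (adjusted p = 0.16). Nucleotide synthesis genes were lower for 7 of 25 and higher for 1, among them Nme1 (-0.21 ± 0.04), Nme2 (-0.23 ± 0.05) and Cad (-0.29 ± 0.07), and Pnp changed by -0.17 ± 0.05. Nme3, a gene outside that list, was among the 12 largest falls (-1.12 ± 0.17). Cholesterol synthesis had 2 of 22 lower, Fdps (-0.25 ± 0.06) and Ebp (-0.14 ± 0.05), and none higher. The ATF4 list had 2 of 17 higher, Trib3 (1.34 ± 0.26, called) and Ddit3 (0.37 ± 0.08), and 1 lower, Cebpb (-0.41 ± 0.06), with Phgdh, the most abundant, not passing (adjusted p = 0.30). Aminoacyl-tRNA synthetases had 4 of 20 higher and 2 lower, with Nars at 0.31 ± 0.05, Sars at 0.27 ± 0.04 and Aars at -0.26 ± 0.05. Of 34 constitutive proteasome genes, 2 were higher, Psmd4 (0.32 ± 0.04) and Psmd1 (0.22 ± 0.04), and 4 lower, with Psmd5 at -0.20 ± 0.06. Aldh1b1 did not pass (-0.16 ± 0.13, adjusted p = 0.38). Hk2 no longer passed without 7 of 8 mice, each left out alone (0.24 to 0.28), Ebp without 5 of 8 (-0.15 to -0.09), Pnp without control mouse 1 (-0.14), control mouse 3 (-0.15) or 24 h mouse 2 (-0.13) and Psmd5 without control mouse 3 (-0.18) or 24 h mouse 2 (-0.16).

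Calls were rare among genes of cell death, as they were over all genes tested (1.46% called higher and 0.756% lower). By adjusted p alone, 14.5% of all genes were higher and 13.8% lower. Of 16 BCL2 family genes, 3 were higher and 3 lower, and none was called. Bcl2 (0.04 ± 0.07, adjusted p = 0.70) and the inhibitor of apoptosis Birc2 (0.05 ± 0.07, adjusted p = 0.61) did not pass, while Bcl2l1 changed by 0.35 ± 0.10 and Bok, at 3.21 ± 0.176 CPM at 24 h, by 0.96 ± 0.21. Of 18 p53 targets, 3 were higher and 3 lower, with Perp at 0.76 ± 0.18, Ccng1 at -0.32 ± 0.10 and the most abundant, Bax, at -0.17 ± 0.05. Necroptosis and death receptor genes were higher for 7 of 17 and lower for 3, with Tnf at 0.62 ± 0.18, the death ligand Tnfsf10 at 0.46 ± 0.10, Tradd at -0.32 ± 0.05 and Casp8 at 0.14 ± 0.05. Of 17 inflammasome genes, 6 were higher and 2 lower. The caspase genes Casp4 and Casp1 rose by 0.61 ± 0.10 and 0.27 ± 0.07, and Casp4 went from 12.7, 12.3, 11.2 and 14.8 to 18.3, 21.2, 17.3 and 16.95 CPM. Zbp1, also a member, was the one called. Il18 changed by 0.66 ± 0.12, Mefv by -0.76 ± 0.13 and Pycard by -0.23 ± 0.05. Of 10 interferon-responsive chemokines and cytokines, 5 were higher and 2 called, Cxcl10 and Ccl5. Ccl5 changed by 1.23 ± 0.45 (adjusted p = 0.046), with 63.9% of its 24 h UMIs in 10 cells, and Il15, the most abundant, did not pass (adjusted p = 0.63). The call of Ccl5 was lost in 11 of 18 alternatives (adjusted p 8.8e-04 to 0.20), among them 6 of 8 that left out a mouse (0.74 to 1.30). Without control mouse 1 it was 2.44. Of the smaller changes, Bcl2l1 no longer passed without control mouse 1 (0.33), control mouse 3 (0.32) or 24 h mouse 2 (0.29), Tnf without control mouse 2 (0.53) or 24 h mouse 2 (0.52), Ccng1 without control mouse 3 (-0.24), Casp8 without control mouse 3 (0.12) and Bax without control mouse 1 (-0.14).

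Sgms2, a sphingomyelin synthase, was also among the 12 largest falls (-1.09 ± 0.16).

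The interferon response was then followed within the gates. Control mouse 4 had fewer than 5 cells in the Pf4 gate, which was therefore fitted with 3 control mice. Against control, 82 genes were called higher and 32 lower among cells with a Hlf UMI (0.745% and 0.291% of 11003 tested), 102 and 34 among cells with at least 10 Elane UMIs (1.03% and 0.343% of 9918), 115 and 47 among cells with at least 2 Klf1 UMIs (1.30% and 0.532% of 8833) and 64 and 10 among cells with at least 4 Pf4 UMIs (0.804% and 0.126% of 7962). By adjusted p alone, 4.82% of genes were higher in the Hlf gate and 3.15% lower, 8.12% and 6.09% in the Elane gate, 6.29% and 4.43% in the Klf1 gate and 3.05% and 1.24% in the Pf4 gate. In cells with no Hlf UMI, 175 genes were called higher (1.54%) and 85 lower (0.749%). Of 205 genes called higher in at least 1 gate, 26 were called higher in all 4. They include the ISGs Ifi27l2a, Irf7, Isg15, Rtp4, Oasl2, Oas1a, Ifi44, Iigp1, Dhx58 and Ly6a, and the short or histone genes Rpl35 and Hist1h2ap.

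Ly6a rose in all 4 gates from different starting levels. It went from 81.9 ± 16.7 to 229.7 ± 15.8 CPM (SD, n = 4) in the Hlf gate, from 3.02 ± 0.982 to 26.9 ± 3.11 CPM in the Elane gate, from 14.2 ± 14.5 to 84.4 ± 44.3 CPM in the Pf4 gate (n = 3 control mice, of which mouse 1 was at 30.8 CPM and the others at 7.30 and 4.51) and from 0.549 ± 0.488 to 7.93 ± 1.88 CPM in the Klf1 gate. At 24 h the Elane-gated cells thus had a lower level than Hlf-gated control cells. Ifi27l2a went from 18.3 ± 2.79 to 143 ± 13.4 CPM in the Hlf gate and from 1.04 ± 0.873 to 44.8 ± 10.1 CPM in the Klf1 gate.

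Lineage genes were also lower within the gates of their own lineage. Of 25 erythroid genes tested in the Klf1 gate, 21 were lower by adjusted p, 6 were called lower and none was higher, where 4.43% of all genes tested were lower, with a median of -0.65. Hba-a1 changed there by -3.27 ± 0.52 (adjusted p = 6.6e-05) and Car1 by -0.28 ± 0.09 (adjusted p = 0.04). In the Elane gate 12 of 19 genes of the primary granule were lower and 1 higher, where 6.09% and 8.12% of all genes tested were. In the Hlf gate 13 of 19 were lower, where 3.15% of all genes were. The Klf1 gate did not follow, with 5 of 16 higher, 0 lower and a median of 0.05, where 6.29% and 4.43% of all genes were. In the Pf4 gate 1 of 16 was higher and 1 lower, with a median of -0.33. Of Hlf-gated cells, 15.3% also passed the Elane gate in control and 10.1% at 24 h, and 71.1% and 52.7% held an Elane UMI. Within each gate, too, fewer cells of a type and less RNA per cell cannot be told apart. Elane in Hlf-gated cells changed by -1.08 ± 0.24 (adjusted p = 0.0034). The call of Elane in this gate was lost under the stricter gate of 2 Hlf UMIs (-0.70). Klf1-gated cells, which are expected to lack the gene, held an Elane UMI in 64.7% of control cells and 51.4% at 24 h. In Pf4-gated cells the shares were 62.6% and 46.6%. How much of a gate's Elane UMIs came from its own cells was not tested. Megakaryocyte genes in the Pf4 gate were lower for 6 of 20 and higher for none, where 1.24% of all genes tested were lower. The make-up of this gate differed too. Of its cells, 40.8% in control and 47.5% at 24 h also held a Hlf UMI. Exactly 4 Pf4 UMIs were held by 14 of 147 control cells and 40 of 337 cells at 24 h. Of 27 HSC identity genes tested in the Hlf gate, 5 were higher by adjusted p and none lower, with a median of 0.21, where 4.82% of all genes were higher. In cells with no Hlf UMI, 15 of 25 were higher and none lower, with a median of 0.60, where 12.7% of all genes were higher. A cell with no Hlf UMI is not shown to lack Hlf, since finding one depends on depth. With cells thinned to 5000 UMIs, the share with a Hlf UMI was 22.1% in control and 25.7% at 24 h, against 37.3% and 43.3% unthinned.

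Of 9 MHC class II genes, 1 was higher by adjusted p over the whole compartment and 0 were called. In the cells with a Hlf UMI, 5 of 8 were higher by adjusted p, where 4.82% of all genes were, and 3 were called higher. Class II presents peptides to CD4+ T cells and is best known from dendritic cells, macrophages and B cells. Over all cells 1 of 9 class II genes passed, H2-Oa (0.31 ± 0.10), which did not without control mouse 1 (0.27) or 24 h mouse 2 (0.24), and the most abundant of the list, H2-DMa, did not (0.09 ± 0.06, adjusted p = 0.30). Cd74, the invariant chain, was 63.8, 55.7, 57.03 and 0.870 CPM in control and 54.1, 129, 107 and 119 CPM at 24 h (0.91 ± 0.41, adjusted p = 0.10), and passed in 4 of 18 alternatives, among them without 24 h mouse 1 (1.10). Those control UMIs were concentrated, since 10 cells held 77.9% of them, against 21.8% at 24 h. The share of cells with a Cd74 UMI was 5.996% ± 3.06 (SD, n = 4) in control and 24.7% ± 5.02 at 24 h.

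Among cells with a Hlf UMI, Cd74 was 52.4, 24.5, 30.3 and 2.65 CPM in control and 127, 258, 275 and 198 CPM at 24 h. All 24 h mice lay above all control mice (log2 fold change 2.62 ± 0.23, adjusted p = 7.0e-09). The class II chain genes H2-Aa and H2-Eb1, chosen after their values were seen, changed by 1.87 ± 0.21 and 2.25 ± 0.26. Of 8 class II genes tested there, 3 were called higher, where 0.745% of all genes were. In cells with no Hlf UMI, Cd74 was 68.3, 65.7, 67.7 and 0 CPM in control and 12.95, 39.6, 10.98 and 80.5 CPM at 24 h (-0.72 ± 0.64, adjusted p = 0.45). The cells with at least 4 Pf4 UMIs, of which 40.8% also held a Hlf UMI in control, showed a rise as well, from 11.6, 0 and 0 CPM in 3 control mice to 61.6, 209, 102 and 29.6 CPM at 24 h (adjusted p = 3.6e-06).

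Counted as cells, the 3 class II genes Cd74, H2-Aa and H2-Eb1 were found more often at 24 h both with and without a Hlf UMI. This did not hold as clearly for H2-Ab1, another class II gene. Over all kept cells, a H2-Ab1 UMI was found in 41.4% to 54.4% of a control mouse's cells and in 50.1% to 61.3% at 24 h, with groups that overlapped. A Cd74 UMI was found in 11.5% ± 5.17 (SD, n = 4) of Hlf-positive control cells and 44.8% ± 8.68 at 24 h, an H2-Aa UMI in 13.4% ± 6.17 and 38.9% ± 6.77, and an H2-Eb1 UMI in 8.79% ± 2.59 and 28.7% ± 6.98. With every cell thinned to 5000 UMIs the Cd74 shares were 8.12% ± 2.64 and 33.8% ± 7.23, after leaving out 6 control cells and 17 cells at 24 h that were shallower. In each of the 3 genes all 24 h mice lay above all control mice, which is a description, since the genes were chosen after their values were seen. In cells with no Hlf UMI, a Cd74 UMI was found in 2.84% ± 2.03 of control cells and 9.18% ± 1.496 at 24 h, an H2-Aa UMI in 2.79% ± 1.90 and 8.53% ± 3.09 and an H2-Eb1 UMI in 1.69% ± 1.28 and 5.52% ± 2.17, again with no overlap. In cells with at least 10 Elane UMIs, where little class II is known, a Cd74 UMI was found in 1.32% ± 1.61 and 5.11% ± 0.667, in cells whose median depth in control was 32940 UMIs against 14482.5 in the Hlf gate.

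**Figure D5:**
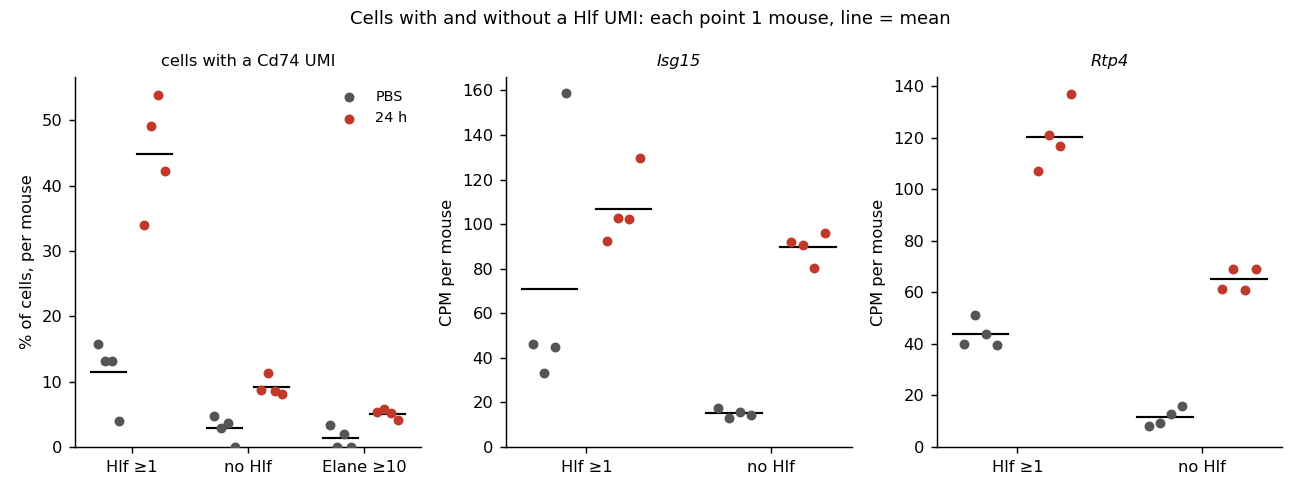
Left, share of cells with a Cd74 UMI in each mouse (y axis, percent) among cells with a Hlf UMI, with none and with at least 10 Elane UMIs. Middle and right, level of Isg15 and Rtp4 in each mouse (y axis, CPM) in cells with and without a Hlf UMI, with control in grey, 24 h in red and a line at the mean of 4 mice. Cd74-positive cells are 11.5% and 44.8% on average in Hlf-positive cells, and control levels of both ISGs are higher in cells with a Hlf UMI.

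The difference between cells with and without a Hlf UMI was tested directly as an interaction with the mouse as a term (edgeR, 11672 genes). It was called positive for 15 genes and negative for 15 (0.129% each). The fitted log2 change of Cd74 was higher by 3.57 ± 0.44 in cells with a Hlf UMI than in cells without (adjusted p = 1.7e-04). For H2-Eb1 the difference was 2.89 ± 0.41 and for H2-Aa 2.48 ± 0.41. In cells with no Hlf UMI the fitted change of Cd74 was negative and did not pass. Among the class II genes 3 of 9 were called positive. This difference is one of summed UMIs, and the control UMIs of Cd74 lay in few cells. The share of cells with a UMI of these 3 genes was higher at 24 h in both sets, and whether it differed between the sets was not tested. The globin genes Hba-a1 (3.92 ± 0.67), Hbb-bs (3.84 ± 0.70) and Hba-a2 (3.76 ± 0.71) and Ccl5 (2.94 ± 0.57) were also called positive. A positive value does not by itself mean a rise in cells with a Hlf UMI, and over all cells the globins were lower at 24 h. Few control cells weighed on them. In control mouse 1, 1 cell held 731 of 1713 Hba-a1 UMIs, and in control mouse 3, 1 cell held 581 of 1500. Antiviral effectors went the other way, with 8 of 37 negative by adjusted p, where 0.497% of genes tested were, and none positive. The interaction was -1.27 ± 0.16 (adjusted p = 1.7e-04) for Isg15, -1.22 ± 0.12 for Rtp4, -1.37 ± 0.15 for Oasl2 and -1.63 ± 0.27 for Ifi44. The control levels of these ISGs differed too. Rtp4 was 40.03, 51.2, 43.7 and 39.7 CPM in control cells with a Hlf UMI and 8.24, 9.36, 12.7 and 15.7 CPM without, and at 24 h 107, 121, 117 and 137 CPM with and 61.1, 69.1, 60.95 and 69.1 CPM without. The 24 h level was thus higher in cells with a Hlf UMI, while the fold change was smaller. Isg15 in cells with a Hlf UMI was 46.3, 33.1, 44.96 and 159 CPM in control and 92.4, 103, 102 and 129.5 CPM at 24 h. Control mouse 4, whose value includes the 1 cell described above, lay above all 24 h mice. The change in this gate was 1.19 ± 0.18 (adjusted p = 3.0e-05), and 0.70 with DESeq2, where it did not pass.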

How the data were processed

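Per the labels, HSPCs of 4 mice per time point were hashtagged and pooled into 1 10x Genomics 3′ v3.1 library, and the submitters' processing notes name Cell Ranger 3.1.0, Seurat and mm10. The gene annotation is not given in the sources used here. The authors deposited raw UMI counts for 27998 features per barcode, and hashtag tables with counts, a margin score and the mouse or doublet call of each barcode. Libraries shared at most 1 kept barcode. Hashtag doublets were removed, while doublets of 1 mouse remain.

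Kept cells (hashtag of 1 mouse, at most 5% mitochondrial UMIs, at least 700 genes) were summed per mouse and tested with edgeR 4.0.16 in R 4.3.3 (filterByExpr, TMM factors, quasi-likelihood F test over 16 mice, Benjamini-Hochberg adjustment). This test returns no standard error. The SE given with a log2 fold change is its absolute value divided by the square root of the F statistic, an approximation. Gates required at least 1 Hlf, 10 Elane, 2 Klf1 or 4 Pf4 UMIs, with at least 5 cells per mouse. Alternatives used DESeq2 1.42.0, limma 3.58.1 on log2(CPM + 1), other scalings, filters and gates, and left out each mouse. Shares of cells were compared by exact permutation of mice, with cells thinned to 5000 UMIs as an alternative. The test of 24 h against control was run on simulated counts for 11919 genes. By adjusted p under 0.05 and direction alone, it recovered 100% and 98% of 4-fold rises and falls and 96% and 94% of 2-fold ones. With the fold threshold added, there was 1 false call. The 2-fold rises and falls had median fitted log2 fold changes of 0.995 and -0.999, just short of that threshold, so recovery by adjusted p overstates how many would be called.

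Of 42 gene lists (1040 distinct genes), all tested members were counted. Genes were named by a rule: the 12 largest called rises and falls at 5 CPM or more without overlap, the 3 largest changes and the most abundant member of each list, and genes the study names. Members and lists were chosen with earlier results of these data known. Transcript lengths came from GENCODE vM21. Intervals and tests cover these mice, and each time point was 1 library. Some items are not reported here.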

Additional observations from a re-analysis of the deposited data

Results flagged for a closer look

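In 352 sets of 4 mice (a gene or gate in control or at 24 h), 32 had 1 mouse far from the other 3 by Dixon's criterion, where chance gives about 1 in 20. Control mouse 4, which had 58 cells, was that mouse in 19. It was the highest of the control mice for the ISGs Cxcl10 (48.7 CPM), Iigp1 (24.4), Zbp1 (21.8), Ifi44 (17.4), Oasl2 (15.7), Ifit3 (13.1), Usp18 (11.3), Dhx58 (10.4), Oas1g (2.61) and Ifit1bl1 (1.74). In 1 of its cells lay 56 of its 56 Cxcl10, 21 of 28 Iigp1, 17 of 25 Zbp1, 14 of 15 Ifit3, 9 of 20 Ifi44, 9 of 18 Oasl2 and 5 of 13 Usp18 UMIs.

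The same mouse was highest for Fdps (119 CPM), Jak1 (104 CPM), mt-Nd4l (61.8 CPM), Mycn (33.1 CPM) and Bcl2l1 (11.3 CPM), and lowest for Cd79b (36.5 CPM), Hk2 (9.57 CPM), Fcnb (1.74 CPM) and Cd74 (0.870 CPM). Among the other control mice, H2-Q7 (112 CPM) and Chil3 (9.22 CPM) stood apart upward in mouse 1 and Robo4 (1.44 CPM) in mouse 3. At 24 h, mouse 4 was high for Rpl35 (1554 CPM), Hmgb2 (1214 CPM), Hspa1b (16.6 CPM) and Sgms2 (5.002 CPM), and mouse 2 for Ifi47 (133 CPM) and Robo4 (2.73 CPM). Low values at 24 h were those of Psmd4 in mouse 2 (202 CPM), Spi1 (162 CPM) and Il15 (12.0 CPM) in mouse 3 and Irf7 in mouse 1 (57.9 CPM).

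The change at 24 h in summed UMIs differed between cells with and without a Hlf UMI, by the interaction test in edgeR, for 30 of 11672 genes, of which 14 were examined. The log2 difference was positive for Hba-a1 (3.92), Hbb-bs (3.84), Hba-a2 (3.76), Cd74 (3.57), Ccl5 (2.94), H2-Eb1 (2.89), H2-Aa (2.48) and the lysosomal protease gene Ctss (1.11, chosen after its values were seen). A positive difference does not by itself mean a rise in cells with a Hlf UMI. The log2 difference was negative for the ISGs Iigp1 (-2.50), Ifi44 (-1.63), Oasl2 (-1.37), Zbp1 (-1.34), Isg15 (-1.27) and Rtp4 (-1.22). Of the 30 called genes, 17 were still called without control mouse 1, 23 without control mouse 2 or 3 and 25 to 29 without any other mouse. The 14 examined were picked from the genes called with all 8 mice, so their stability does not stand for all 30. For these 14, with each of the 8 mice left out in turn, 106 of 112 values kept their direction and an adjusted p under 0.05. This count disregards the fold threshold. Those that lost the call and kept the direction were Ccl5 without control mouse 1 (2.59) or 3 (2.85), and Hba-a2 and Hbb-bs without control mouse 1 (2.72 and 2.56) or 24 h mouse 1 (3.16 and 3.23). The cell of control mouse 4 that held all its Cxcl10 UMIs had 1 Hlf UMI, so it counts among the cells with one.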

How the results depend on the processing

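The count of genes called at 24 h was 413 with no filter on low counts (239 higher and 174 lower), 104 with every cell weighted equally in limma (69 and 35), and 215 to 312 with 1 mouse left out, against 267 in the fit described. With no filter, 184 were called in the Hlf gate, 210 in the Elane gate and 116 in the Pf4 gate, and with DESeq2 63 in the Hlf and 49 in the Pf4 gate. The interaction of time and Hlf was called for 19 to 35 genes with 1 mouse left out, the lowest without control mouse 1. Scaling by library size alone turned the 74 higher and 353 lower calls against 3 h into 132 and 298 (3752 and 1172 without the fold threshold, against 1478 and 1959), and DESeq2 the 78 and 13 calls against 72 h into 60 and 2.

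The direction turned for Bcl2 (-0.00076) and mt-Co1 (-0.0045) with all barcodes of a single hashtag, for Birc2 (-0.13) and Lck (-0.031) with equal weight of cells, for Birc2 without control mouse 1 (-0.0072, over a range of -0.0072 to 0.081 with mice left out), and for Cxcl10 in the likelihood ratio test on 8 mice (-0.93). The cause was not tested. For the 172 genes examined, 1291 of 1376 values with a mouse left out and 1625 of 1719 under other alternatives kept their direction and side of the threshold. Shares of cells differed by -12.2 to -10.9 points (Elane), 4.49 to 7.95 (Hlf), -2.88 to -0.22 (Klf1) and 2.41 to 3.88 (Pf4) with a mouse left out. Under the stricter gates the Elane and Pf4 differences were -9.72 and 1.30 points, and in cells thinned to 5000 UMIs -9.69 and 1.42.

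Hashtag numbers did not pair the mice. Deviations of same-numbered mice correlated at -0.019, 0.0013, 0.035 and 0.016, and with the number as a replicate block 260 genes were called (159 higher, 101 lower). Comparing cells without a Hlf UMI and the interaction were chosen after seeing the data. Control mouse 4, at 1102706 UMIs, limits the precision of rare genes.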
